A study of Zea mays with 8 samples.

Results

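The elongation zone of maize leaf 6 was compared with the division zone of the same leaf in plants grown at high nitrogen. The comparison used 4 of the 8 libraries of the study, 2 per zone, and 23242 of the 43110 loci in the table, those with a mean of at least 1 FPKM (fragments per kilobase, a level scaled for transcript length and for library, here a unit judged from the values) in either zone. All plants were of the inbred line B73 and grew in hydroculture. High nitrogen (HN) was a supply of 4 mM and low nitrogen (LN) a supply of 0.04 mM. The study asked how a low supply slows leaf growth, and its remaining 4 libraries hold the same zones at LN. The labels describe 2 biological replicates per tissue and do not say how many plants each library pooled or how far from the leaf base each zone was cut, so a zone stands here for whatever cells its segment held.

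A grass leaf grows from its base. Cells divide in the basal segment, leave it by displacement, and lengthen in the next segment without dividing, so that position along the blade follows cell age. Lengthening needs water uptake driven by stored solutes, loosening of the wall and new wall polymers, while plastids develop and photosynthetic proteins begin to accumulate as cells move towards the mature blade.

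Sums per HN library ran from 751883 to 1113553 FPKM, and 21136 to 21602 loci reached 1 FPKM in each. Read numbers were not used here; steps between low values gave rough depths of 0.762 to 1.09 relative to division replicate 1, lowest in elongation replicate 2. The division libraries were closer to each other (Pearson r = 0.971 across loci, which are not independent replicates) than the elongation libraries (0.940), and 1.76% of tested loci differed more than 2-fold between the division libraries against 9.32% between the elongation libraries. Elongation replicate 2 also differed from replicate 1 in several gene groups below; the part of that difference in the results was not tested.

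The zone labels were compared with marker genes. Of 13 markers of dividing tissue 11 were lower in the elongation zone, with summed levels of 5209 and 4074 FPKM in the division libraries and 1160 and 2053 FPKM in the elongation libraries. Of 18 markers of elongating tissue 15 were higher, with sums of 556 and 450 against 1857 and 3094 FPKM. These markers also belong to the gene groups described below and are no separate evidence. Of the 18, expA3, expB5, PIP2-5 and TIP2-1 reached the level for a test only through the elongation zone, which all but fixed their direction. PIP2-6, TIP2-2 and TIP2-3, under 1 FPKM in every library, and the untested expansins are not among the 18. The 11 loci taken as markers of shoot meristem and stem stayed at or under 0.437 FPKM in every library, and 5 of them were at 0 throughout. Other homeobox genes of the KNOX and WOX families, described below, were not among these 11 and did reach the level for a test. Both tested mesophyll markers and the 3 tested bundle sheath markers were higher in the elongation zone, with sums of 21.0 and 15.8 against 99.7 and 104 FPKM for mesophyll and of 31.3 and 32.4 against 526 and 690 FPKM for bundle sheath. The 2 tested markers of secondary xylem were not called, with sums of 105 and 82.8 against 82.8 and 109 FPKM. What the makeup of cell types contributes to the differences below was not tested. In whole segments, fewer cells of a type and less RNA per cell cannot be told apart.

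Differences are given as log2(FPKM + 1) in the elongation zone minus that in the division zone, with the standard error (SE), and were tested with limma across all 23242 loci with Benjamini-Hochberg adjustment at 0.05. Of these loci 6714 were called (28.9%), 3830 of them higher in the elongation zone (16.5%) and 2884 lower (12.4%). The median difference over all tested loci was -0.04. Among called loci the median size was 1.41, which is a change of the log2 value in either direction. Changes of at least 4-fold on this scale were called at 998 higher and 518 lower loci, and changes of at least 16-fold at 92 higher and 20 lower loci. Calls were uneven over levels: of the 1423 loci at a mean of 100 FPKM or more, 21.0% were higher and 5.13% lower, while of the 7067 loci from 1 to 5 FPKM 13.4% were higher and 13.1% lower. Giving every library the same total shifted that median by -0.20 and turned the split to 3038 higher (13.1%) and 3713 lower (16.0%), so 45.0% of called loci were higher in place of 57.0%. Without either division library, with 3 libraries and 1 residual degree of freedom, limma called 0 loci, although 5433 and 5460 had an unadjusted p under 0.05. A fit of all 8 libraries without each of them still called 5826 and 5825 of the 6714 in the same direction. The 8-library fit pools the spread of the HN and LN groups. By the plan of these fits the LN groups spread less than HN elongation, so pooling may understate the error of this comparison. These limits apply to every count below.

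The largest rise among named genes was in PIP2-3, a plasma membrane aquaporin, that is, a water channel (chr4:143891075-143894123, in the coordinates of the deposited table, with the build B73 RefGen_v3 per the submitters' processing notes). It stood at 1.24 and 1.35 FPKM in dividing tissue and at 89.5 and 161 FPKM in elongating tissue, a difference of 5.72 ± 0.32 (SE, n = 2 per zone; limma adjusted p = 0.0026). Its neighbour in rank, PIP2-4 (chr5:195239679-195242694), stood at 6.11 and 5.80 FPKM against 232 and 417 FPKM (5.49). TIP2-1, an aquaporin of the vacuolar membrane, went from 0.856 and 0.588 to 47.5 and 105 FPKM (5.39). The 3 channels were all under 7 FPKM in dividing tissue and higher in elongation replicate 2 than in replicate 1, with no overlap between zones. Next in size were glu2, a beta-glucosidase, at 2.16 and 2.56 against 177 and 90.6 FPKM (5.25), and the AP2/ERF factor WIN1, whose Arabidopsis namesake promotes wax deposition, at 1.56 and 2.21 against 92.4 and 108 FPKM (5.14). MYB61, a MYB factor, was at 0.738 and 0.338 against 43.1 and 60.9 FPKM (5.10). Of these genes WIN1 shares its span with another locus. The remaining members of the 15 largest rises were znod1, the xyloglucan-modifying enzyme xth1, the chlorophyll-binding CAB-M9, BURP4, the small Rubisco subunit rbcS, the photoprotection protein psbs1, the flavonoid glucosyltransferase bz1, the beta-expansin expB6 and the polyamine oxidase pao1, with differences from 5.09 down to 4.13. The last of them, pao1, was already at 50.4 and 66.9 FPKM in the division zone and reached 765 and 1387 FPKM.

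The largest falls were led by histone H4 locus H4C7 (XLOC_035000), at 55.4 and 17.9 FPKM in dividing tissue and listed at 0 in both libraries of elongating tissue; another locus on the same span was at 579 and 1046 FPKM there, so the authors' counting could have split reads between them. ZCN3, of the family of the flowering regulators FT and TFL1, was at 30.7 and 18.1 FPKM against 0 and 0.932 FPKM (-4.14). GIF1, a coactivator of growth-regulating factors (chr1:273393236-273396891), was at 23.7 and 21.6 FPKM against 0.331 and 1.17 FPKM, a difference of -3.80 ± 0.30 (limma adjusted p = 0.00281). Both genes were at or under 1.17 FPKM in elongating tissue. HMG5, a chromatin protein of the high-mobility-group class, was at 105 and 102 FPKM against 4.71 and 8.85 FPKM (-3.80). The wax gene homologue CER1 (GRMZM2G099097) was at 24 and 22.7 against 0.628 and 2.11 FPKM (-3.43), and TCP20, of a factor family that controls organ growth, at 23 and 12.7 against 0.709 and 0.635 FPKM (-3.44, on a shared span). The rest were the mitotic cyclins cyc1, cyc3 and cyclin8, the kinesin-related krp13, the microtubule end-binding ATEB1A, CSLD1, kin2, KIN8 and ada2, with differences from -3.57 to -3.09. In all 30 genes both libraries of one zone lay above both of the other, which the way they were chosen required. Over all tested loci 34.7% had both elongation libraries above both division libraries and 35.9% had them below.

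**Figure D1:**
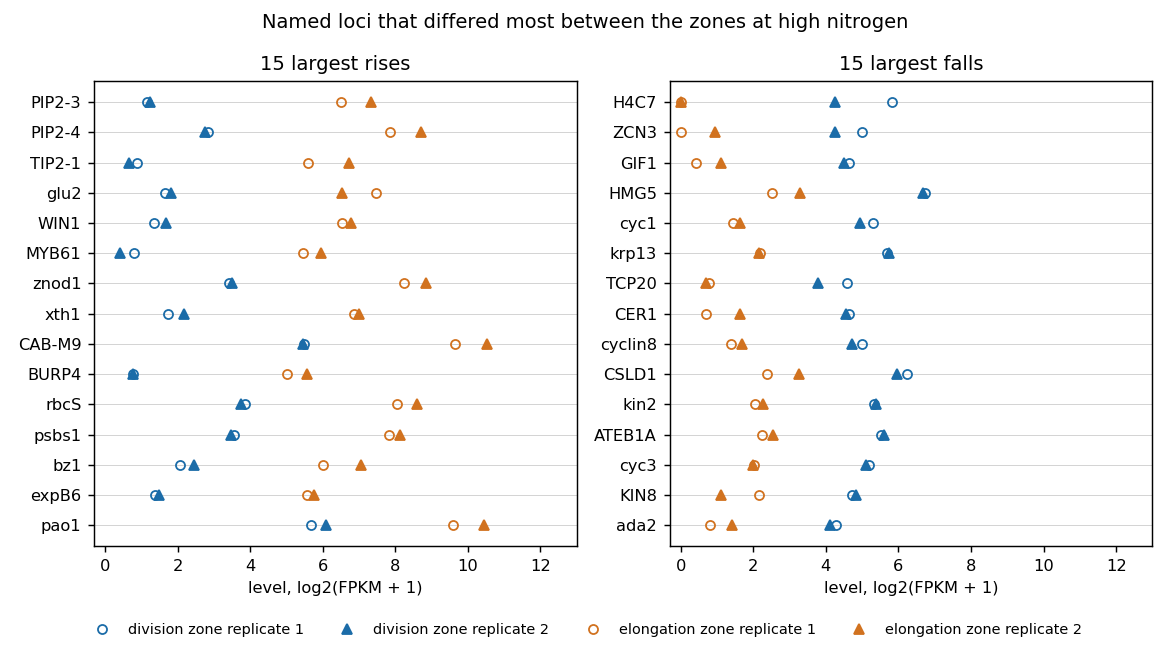
Levels as log2(FPKM + 1) in each HN library for the 15 largest rises (left panel) and the 15 largest falls (right panel) among named genes, with division libraries in blue, elongation libraries in orange, replicate 1 as open circles and replicate 2 as filled triangles. The zones do not overlap in any row, and the genes on the left other than CAB-M9 and pao1 lie under 4 on this scale in dividing tissue.

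Of 23 genes of mitosis and cytokinesis, all tested, 18 were lower and 1 was higher in the elongation zone, with a median difference of -1.88. The B-type cyclins and kinesins that act at cell division were the strongest: cyc1 was at 38.1 and 29.7 FPKM against 1.73 and 2.14 FPKM (-3.57 ± 0.22, limma adjusted p = 0.0026), and krp13 at 50.2 and 52.8 FPKM against 3.56 and 3.44 FPKM (-3.54). Between replicates of a zone these genes differed little, and the zones were far apart. Other kinesin-related members did not follow: krp9 was at 34.3 and 35.8 against 36.8 and 27.7 FPKM, and krp15 at 15.8 and 18.6 against 37.5 and 26.3 FPKM (0.84, adjusted p = 0.059 by limma). Among the D-type cyclins and retinoblastoma-related genes, which govern entry into the cycle, 1 of 7 was called, RBR3 at 20.6 and 23.3 against 4.67 and 3.76 FPKM (-2.14). More were called when either elongation library was left out, as over all tested loci. The D-type cyclin cycD2 was at 47.6 and 40.6 FPKM in dividing and 38.5 and 52.4 FPKM in elongating tissue, with overlapping libraries.

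DNA replication genes were lower at 12 of 16 tested loci of 17, and higher at 0, with a median of -1.76 and all 16 differences negative. The sliding clamp gene pcna2 was at 259 and 220 FPKM against 35.0 and 54.5 FPKM (-2.42 ± 0.30, limma adjusted p = 0.00636). MCM6 and MCM7, subunits of the helicase that opens DNA, were at 39.2 and 44.2 against 7.81 and 8.50 FPKM and at 39.8 and 42.2 against 7.51 and 8.17 FPKM. The large ribonucleotide reductase subunit RNRL2, which makes DNA precursors, was at 17.3 and 16.7 against 3.57 and 2.22 FPKM. The ratio of mean levels, elongation to division zone, was 0.171 to 0.196 in these 4 genes. The topoisomerase Top1, used in transcription as well as replication, was at 42.9 and 47.8 against 32.6 and 20.6 FPKM and was not called. Of 9 DNA repair genes 5 fell and 1 rose. The recombinase RAD51A went from 17.8 and 16.3 to 3.54 and 3.52 FPKM (-1.99), while a locus carrying the name msh1 (GRMZM2G036217) went from 25.3 and 27.8 to 114 and 131 FPKM (2.16). A second locus of that name, GRMZM2G360873, fell from 1.96 and 2.36 to 0.772 and 0.595 FPKM (-0.91).

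Histone genes were the most abundant of the cell cycle groups and the one whose count depended most on a single library. Their summed levels were 30813 and 22524 FPKM in the division libraries and 7143 and 13589 FPKM in the elongation libraries. All 32 tested loci had negative differences, with a median of -1.47, but 10 were called. Elongation replicate 2 exceeded replicate 1 in them by a median of 0.97, and the median difference was -2.02 without replicate 2 and -0.95 without replicate 1. Without replicate 2, 22 of 32 were lower (against 14.9% of all tested loci, or 33.4% in either direction), and without replicate 1 the count was 4 (against 20.9% of all tested loci, or 44.6% in either direction). The fit of all 8 libraries called 29 lower (also 20.9% of all tested loci there, and 44.3% in either direction). The 32 loci carry 10 distinct names, most of them H4C7 or H3C2, so near-identical copies may share reads. An H3C2 locus on chromosome 6 was at 158 and 128 FPKM against 24.5 and 54.9 FPKM (-1.92, limma adjusted p = 0.0262), and his2a1, an H2A gene, at 2347 and 1764 FPKM against 563 and 946 FPKM (adjusted p = 0.0889). In both, the zones did not overlap.

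Chromatin and DNA methylation genes were lower at 22 of 58 tested loci of 61 and higher at 0, with a median of -0.75. Without elongation replicate 1 more were called lower, as over all tested loci, and not all calls were lower. The high-mobility-group gene nfd101 was at 835 and 685 FPKM against 93.4 and 130 FPKM (-2.77), and the DNA methyltransferase DMT105 at 70.9 and 75.2 against 10.8 and 11.5 FPKM (-2.61 ± 0.19, limma adjusted p = 0.00273). The remodelling ATPase gene chr101a fell by 2.13. Replicates agreed closely in DMT105, and the 4 largest falls of the group exceeded 4-fold.

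Growth-regulating factors (GRFs) are transcription factors that, with their GIF partners, keep leaf cells proliferating. Of 20 loci 18 were tested, and 12 were lower and 0 higher, with a median of -1.78. GRF1 (GRMZM2G178261) was the most abundant in dividing tissue, at 61.2 and 50.6 FPKM, and stood at 6.47 and 9.45 FPKM in elongating tissue (-2.68 ± 0.25, limma adjusted p = 0.00376). GRF3 was at 14.7 and 11.4 against 1.26 and 0.689 FPKM (-2.84), and GRF9 (GRMZM2G124566) at 11.8 and 7.23 against 0.798 and 0.427 FPKM (-2.68). GRF4 was not called, at 22.2 and 19.9 against 13.7 and 22.1 FPKM with overlapping libraries, nor was GRF10, at 24 and 18.2 against 11.1 and 15 FPKM. The zones did not overlap in GRF10 (-0.66), and GRF10 was called lower with equal totals. The partner gene GIF2, on a shared span, was also uncalled, at 12.2 and 8.16 against 12.1 and 9.28 FPKM (0.08). So were the GRF8 loci and a GRF13 locus (XLOC_002516). GRF4 had the highest level of all GRFs in both elongation libraries. Cell number regulators and ARGOS genes, which are named for effects on organ size, did not move in one direction. Of 11 tested loci of 20, 2 were higher and 1 lower, shares near those of all tested loci (16.5% and 12.4%). With equal totals CNR13 was no longer called higher. CNR7 was at 4.26 and 4.41 against 31.2 and 37.7 FPKM (2.73), and ARGOS5 at 7.59 and 6.62 against 2.68 and 1.48 FPKM (-1.42).

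Of 17 tested polarity and ligule genes, which set the sides and regions of the leaf, 6 fell and 0 rose. The fit of 8 libraries called 8 lower and 3 higher, and without either elongation library 1 was higher. The YABBY factor yabby15 was at 37.6 and 31.0 FPKM against 4.06 and 6.52 FPKM (-2.51), and yab14 at 4.52 and 5.98 FPKM against 0 in both elongation libraries. The auxin response factor ARF3, a target of small RNAs in leaf polarity, was at 102 and 106 against 23.3 and 25.3 FPKM (-2.05 ± 0.19, limma adjusted p = 0.00384). lbl1, the SGS3 homologue needed to make those small RNAs, was at 74.3 and 70.7 against 28.5 and 37.0 FPKM (-1.13). ARF3 and lbl1 both stayed above 20 FPKM in elongating tissue. Of the KNOX and WOX homeobox genes 7 of 21 reached the level for a test. KNOX1 rose from 0.945 and 0.774 to 9.27 and 7.71 FPKM (2.35), and 2 WOX genes at or under 1.52 FPKM fell. TCP4 was higher, at 16.4 and 15.1 against 36.2 and 72.7 FPKM (1.65). Of 16 SBP factors tested 6 fell and 1 rose.

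Among genes of the epidermis and of stomatal divisions 5 of 23 tested rose and 3 fell, shares near those of all tested loci (16.5% and 12.4%). More fell without elongation replicate 2, as over all tested loci. SCR, the Scarecrow homologue, was at 73.2 and 74.6 against 17.7 and 32.4 FPKM (-1.58). The outer cell layer homeodomain genes went both ways, with ocl4 at 11.5 and 11 against 2.94 and 4.01 FPKM and ocl3 at 12.5 and 11.1 against 30.0 and 38.5 FPKM. Precursors of phytosulfokine, a peptide that promotes growth, also split. PSK2 was at 18.8 and 13.5 against 2.01 and 3.14 FPKM (-2.26), and PSK3 at 1.61 and 1.07 against 29.3 and 28.5 FPKM (3.68 ± 0.22, limma adjusted p = 0.0026). Their levels crossed between zones, so that PSK2 was the higher of the pair in dividing and PSK3 in elongating tissue. The receptor kinase gene ERECTA fell, from 64.2 and 68.6 to 28.7 and 28.1 FPKM (-1.20).

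Tubulins, the subunits of microtubules, changed gene by gene. Of 5 alpha-tubulins 2 rose and 0 fell, and of 9 beta- and gamma-tubulins 2 rose and 3 fell, with medians of 0.31 and 0.23. Elongation replicate 2 exceeded replicate 1 by medians of 0.56 and 0.58, and the group medians were 0.08 and -0.07 without replicate 2, 0.53 and 0.52 without replicate 1, and 0.06 and -0.02 with equal totals. TUBB1 was at 609 and 531 FPKM in dividing tissue and 65.2 and 127 FPKM in elongating tissue (-2.63 ± 0.40, limma adjusted p = 0.0102). TUBB4 did the opposite, at 35.1 and 34.8 against 159 and 239 FPKM (2.45 ± 0.27, adjusted p = 0.00524). TUBB1 was far above TUBB4 in dividing tissue, and TUBB4 above TUBB1 in both elongation libraries. TUBA5 was at 188 and 177 against 478 and 761 FPKM (1.72), and TUBA6 at 117 and 114 against 354.6 and 523 FPKM (1.89). The most abundant members were not called: TUBA2 was at 1761 and 1696 against 1831 and 2493 FPKM, with a 95% interval of the difference from -1.10 to 1.71. Summed alpha-tubulin levels were 4897 and 4366 FPKM in the division and 4598 and 6563 FPKM in the elongation libraries, which overlap. Of 18 tested actin and actin-binding genes 5 rose and 1 fell, among them a profilin gene, XLOC_018646, at 14.3 and 13.1 against 80.8 and 98.2 FPKM (2.61) and PRO5, another profilin, at 217 and 199 against 487 and 712 FPKM (1.49).

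**Figure D2:**
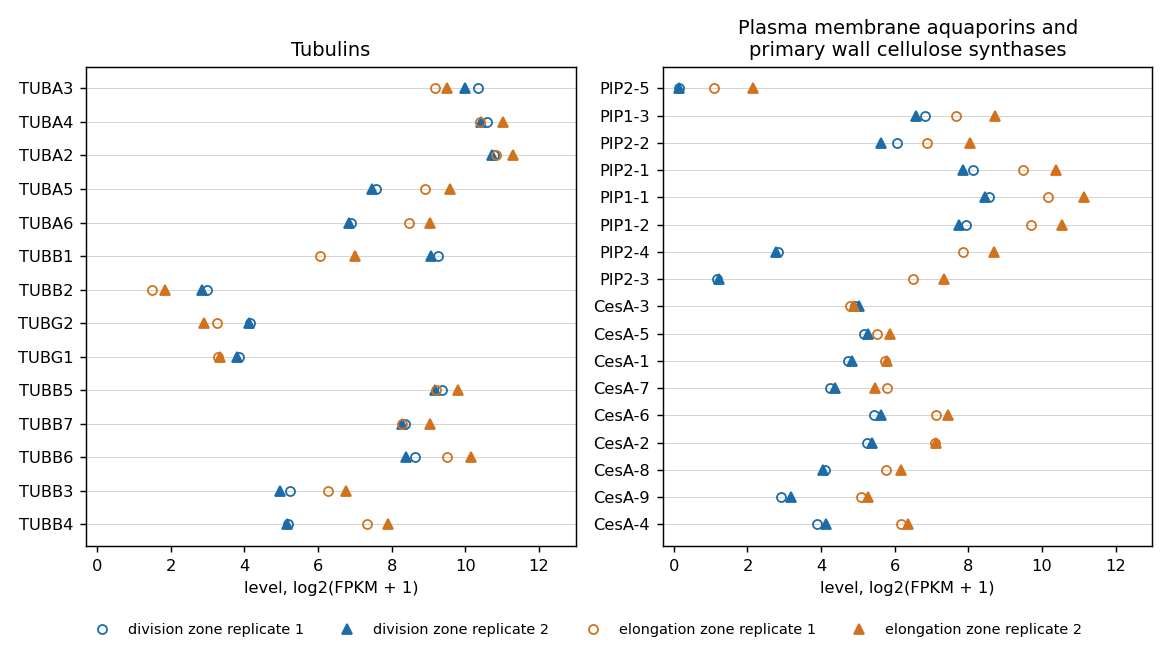
Levels as log2(FPKM + 1) in each HN library for tubulin genes (left panel) and for plasma membrane aquaporins with primary wall cellulose synthases (right panel), division libraries in blue and elongation libraries in orange. TUBB1 and TUBB4 change in opposite directions while TUBA2 stays near 11 on this scale, and all 8 aquaporins lie higher in the elongation zone.

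Expansins loosen the wall so that cells can stretch. Of 16 genes 11 were tested, and 8 rose and 0 fell, with a median of 1.33. expB6 was at 1.60 and 1.78 FPKM against 46.6 and 52.9 FPKM (4.23 ± 0.19, limma adjusted p = 0.0026), and expB4 at 15.7 and 14.1 against 129 and 163 FPKM (3.20). expB8, already the more abundant in dividing tissue, was at 63.2 and 47.1 against 163 and 188 FPKM (1.67). Beta-expansins thus made up most of the expansin transcript per length in both zones. Of the alpha-expansins, expa1 rose from 2.52 and 1.69 to 16.3 and 16.7 FPKM (2.50), while expa2 was at 21.2 and 16.2 against 19.7 and 23.1 FPKM and expA4 at 14.5 and 10.8 against 8.60 and 15.8 FPKM, both with overlapping libraries. Of 11 tested xyloglucan, glucan and cellulase genes 4 rose and 0 fell. xth1 was at 2.33 and 3.53 against 115 and 128 FPKM (4.98 ± 0.23, adjusted p = 0.0026), whereas the glucanase exg1 was at 157 and 156 against 253 and 431 FPKM (1.07, adjusted p = 0.0736).

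Of the 9 cellulose synthases of the primary wall 7 rose and 0 fell, with a median of 1.75 and a small gap between elongation libraries (0.19). CesA-4 was at 13.7 and 16.4 FPKM against 70.6 and 80.8 FPKM (2.26 ± 0.21, limma adjusted p = 0.00366), and CesA-2 at 37.2 and 40.8 against 136 and 137 FPKM (1.78). CesA-9 and CesA-8 rose by 2.12 and 1.88. CesA-3 did not follow, at 29.0 and 31.8 against 26.4 and 29.0 FPKM (-0.13, 95% interval -0.62 to 0.35), nor was CesA-5 called, at 35.2 and 37.9 against 44.8 and 57.2 FPKM. CesA-6, at 139 and 173 FPKM, and CesA-2 had the highest levels of the family in the elongation zone. The secondary wall synthase cesa10, used in vessels and fibres, was at 101 and 78.1 against 76.3 and 103 FPKM, a difference of 0.00 with overlapping libraries. Of the 7 tested secondary wall and COBRA-like loci 4 rose, all COBRA-like, which act in the ordering of cellulose, such as bk4 at 43.2 and 37.6 against 113 and 163 FPKM (1.73).

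The cellulose synthase-like genes changed in opposite directions. CSLD1, whose loss in maize disturbs division of epidermal cells, was at 74.9 and 61.0 FPKM against 4.22 and 8.66 FPKM (-3.27 ± 0.34, limma adjusted p = 0.00463). CslF6-1, of the clade that makes the mixed-linkage glucan of grass walls, was at 41.3 and 40.4 against 189 and 305 FPKM (2.52 ± 0.30, adjusted p = 0.00602) and shares its span with another locus. CSLD1 was therefore the higher of the pair in dividing tissue and CslF6-1 in elongating tissue. Of 15 tested wall protein and sugar nucleotide genes 4 rose and 1 fell, with more rises without elongation replicate 1, as over all tested loci. The proline-rich prp2 led the rises, at 235 and 205 against 2084 and 3219 FPKM (3.56). Of 17 tested lignin and phenylpropanoid genes 6 rose and 1 fell, with a median of 0.41. Elongation replicate 2 exceeded replicate 1 by a median of 0.54. Without replicate 2 the median was 0.09 and 3 fell, without replicate 1 it was 0.83, and with equal totals it was 0.17. PAL1, the entry enzyme of the pathway, was at 170 and 147 against 343 and 629 FPKM (1.55, not called when the filter on low values was dropped), and the methyltransferase ccoaomt1 at 86.0 and 80.6 against 233 and 379 FPKM (1.82). The alcohol dehydrogenase gene cad1, late in the pathway, was at 40.7 and 34.4 against 19.7 and 23.9 FPKM (-0.76, adjusted p = 0.0517).

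All 8 tested plasma membrane aquaporins of 11 rose, with a median of 2.05, and elongation replicate 2 exceeded replicate 1 by a median of 0.93. The members differed widely in level. PIP1-1 and PIP1-2 were abundant in both zones, at 374 and 350.997 against 1152 and 2251 FPKM (2.15 ± 0.48, limma adjusted p = 0.0288; not called when the filter on low values was dropped) and at 245 and 214 against 839 and 1504 FPKM (2.29). PIP2-1 was at 277 and 230 against 713 and 1334 FPKM, while PIP2-3 and PIP2-4, with the largest rises, were the lowest of these 5 in dividing tissue. Summed levels of the family went from 1082 and 946 to 3346 and 6352 FPKM. PIP2-3 and PIP2-4 contributed little to that sum at the leaf base. Of 5 tested tonoplast aquaporins of 10, 4 rose, but 3 of the 5 stayed under 3 FPKM, and with equal totals 2 were called. NIP1-1 was at 104 and 83.3 against 520 and 814 FPKM (2.79 ± 0.34, adjusted p = 0.00642).

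Of 7 tested proton pumps, which power solute uptake and acidify the wall, 3 rose and 0 fell. The plasma membrane ATPase genes mha4 and mha2 were at 23.1 and 24.6 against 84.2 and 122.7 FPKM (2.05) and at 34.6 and 36.8 against 84.6 and 138 FPKM (1.57). Of the vacuolar pyrophosphatases, vpp1 rose from 2.33 and 1.84 to 12.9 and 13.3 FPKM (2.20), whereas the more abundant vpp3 was at 160 and 173 against 203 and 222 FPKM and vpp2 at 121 and 128 against 198 and 205 FPKM, both uncalled although their zones did not overlap. Of 18 tested potassium and proton exchange genes 5 rose and 1 fell, and 2 rose with equal totals. cax1, a calcium and proton exchanger, was at 3.57 and 4.27 against 20.5 and 19.97 FPKM (2.11), and the potassium transporter HAK9 at 2.61 and 3.06 against 10.6 and 11.7 FPKM (1.67).

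Sucrose reaching the leaf base is split by invertases or sucrose synthase. The vacuolar invertase gene ivr2 was at 6.74 and 6.09 FPKM in dividing tissue and at 89.5 and 112 FPKM in elongating tissue (3.77 ± 0.21, limma adjusted p = 0.0026). The sucrose synthase gene sus1 was among the most abundant named genes of both zones, at 2879 and 3078 against 3250 and 4948 FPKM, and was not called. The sucrose transporter genes sut1 and sut4 rose, from 1.53 and 1.75 to 7.69 and 9.43 FPKM (1.85) and from 6.21 and 6.44 to 16.5 and 15.8 FPKM (1.23). Of 12 tested sucrose and hexose genes 4 rose and 0 fell. A further sucrose synthase gene, SH-1, was uncalled at 194 and 184 against 104 and 141 FPKM (-0.64), with no overlap of zones. SH-1 was called lower with equal totals and in the fit of 8 libraries. Of 13 starch genes 4 fell and 1 rose, with ADP-glucose pyrophosphorylase Agp2 (GRMZM2G106213) at 48.3 and 44.8 against 11.4 and 9.85 FPKM (-2.03) and the beta-amylase BMY1 at 1.47 and 1.56 against 9.88 and 5.64 FPKM (1.76). Of 15 glycolysis genes 0 were called by limma, with a median of 0.38 and 4 at an unadjusted p under 0.05. That median was 0.06 without elongation replicate 2, which was the higher by a median of 0.46, and 0.14 with equal totals, where 1 was called higher and 4 lower. The 8-library fit called 2 higher and 3 lower. GAPC2 was at 646 and 671 against 988 and 1538 FPKM.

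Photosystem and light harvesting genes had the highest median of the groups with 5 or more tested members, 2.98, with 14 of 17 tested loci higher and 0 lower. Summed levels went from 1495 and 1392 to 10218 and 17842 FPKM, and elongation replicate 2 exceeded replicate 1 by a median of 0.59. CAB1, a chlorophyll-binding protein, was the most abundant named gene of the elongation zone, at 805 and 752 against 4500 and 8409 FPKM (2.98 ± 0.63, limma adjusted p = 0.0249). Cab-m7 (XLOC_030613) and cab-m1 were at 141 and 133 against 1520 and 3043 FPKM (3.97) and at 40.9 and 41.8 against 554 and 799 FPKM (3.98). psbs1 was at 10.9 and 10.2 against 228 and 281 FPKM (4.46 ± 0.21, adjusted p = 0.0026). Of the 17 loci 9 overlap another, and the second loci at Cab-m7 and CAB-M9 were uncalled at under 9 FPKM.

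C4 and Calvin cycle genes rose at 9 of 13 tested loci of 18 and fell at 0, with a median of 2.23 and a gap between elongation libraries of -0.03. PEPC1, the carboxylase that fixes carbon in the mesophyll, was at 4.35 and 2.87 against 50.6 and 55.6 FPKM (3.57 ± 0.24, limma adjusted p = 0.0026). rbcS on chromosome 2 was at 13.6 and 12.4 against 261 and 385 FPKM (4.51), and RBCS on chromosome 4 at 16.3 and 19 against 252 and 295 FPKM (3.88). Both small subunit genes had similar levels in each zone. The carboxykinase gene pck2 was at 7.79 and 8.56 against 8.85 and 15.2 FPKM and uncalled. Of 14 tested chlorophyll synthesis and plastid regulator genes 8 rose and 0 fell. oy1, a magnesium chelatase subunit, was at 80.7 and 81.7 against 269 and 376 FPKM (1.96), por, the light-dependent reductase of the pathway, at 169 and 146 against 425 and 487 FPKM (1.53), and the chloroplast regulator glk1 at 2.74 and 3.18 against 11.4 and 16.0 FPKM (1.88).

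Plastid biogenesis genes were higher at 28 of 38 tested loci of 39 and lower at 1, with a median of 1.27, and at 20 with equal totals. psa6 was at 134 and 86.5 against 546 and 1048 FPKM (2.80), hcf60, a plastid ribosomal protein, at 144 and 117 against 444 and 700 FPKM (2.10), and WHY1, a plastid DNA-binding protein, at 64.8 and 58.8 against 97.6 and 120 FPKM (0.80, limma adjusted p = 0.0529). Of 13 carotenoid genes 8 rose and 0 fell. crtRB1, a carotene hydroxylase, was at 1.31 and 1.83 against 19 and 21.5 FPKM (3.05), and the phytoene synthase PSY1 at 13.2 and 13.3 against 37.1 and 37.3 FPKM (1.42 ± 0.18, adjusted p = 0.00687). In the carotenoid genes elongation replicate 2 was the lower, by a median of -0.43. Loci on nuclear chromosomes that carry plastid gene names rose at 5 of 26 tested, against 16.5% of all tested loci. Such loci may hold reads of plastid copies. More of them rose without elongation replicate 1, as over all tested loci.

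**Figure D3:**
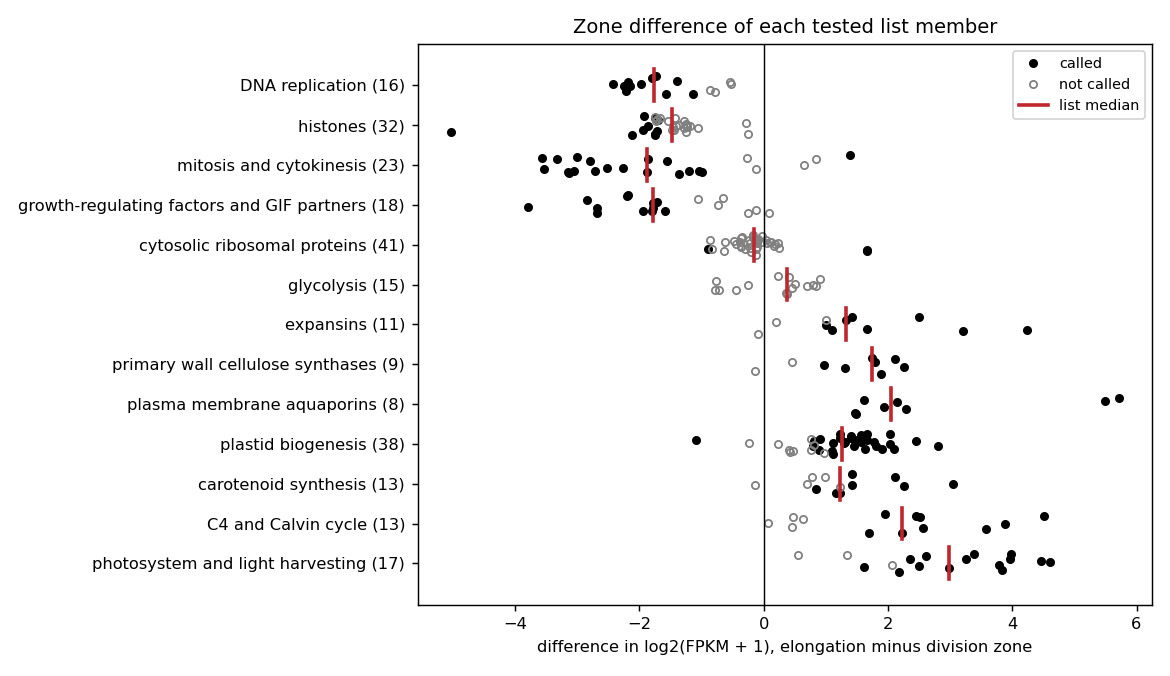
Difference in log2(FPKM + 1), elongation minus division zone at HN, for each tested member of 13 gene groups, with called members in black, uncalled members as open grey circles and each group's median in red. Most cell cycle genes and growth-regulating factors lie left of 0, most photosynthesis, aquaporin and expansin genes right of it, and ribosomal protein and glycolysis genes around it.

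Cytosolic ribosomal proteins, among the most abundant transcripts of both zones, were called higher at 2 and lower at 1 of 41 tested loci. The group was collected by name, and some of its loci carry plastid gene names. Among those tested was RPL2-A (XLOC_008614), uncalled at 1.16 and 0.693 against 1.34 and 1.12 FPKM. Summed levels were 22504 and 17970 FPKM in the division libraries and 14695 and 23986 FPKM in the elongation libraries, so the zones overlapped. The median difference was -0.16, and elongation replicate 2 exceeded replicate 1 by a median of 0.69. Without replicate 2 the median difference was -0.49, and without replicate 1 it was 0.19. RPL29 and rpl19 (GRMZM2G171444) rose, at 130 and 99.6 against 342 and 388 FPKM (1.67) and at 128 and 122 against 426 and 369 FPKM (1.66), and rpl10 (GRMZM2G467086) fell by 0.90. Second loci of the names rpl19 and rpl10 were more abundant in dividing tissue and uncalled, and a further RPL10 locus (XLOC_026793) was at 0 throughout. RPL19 (XLOC_027403) was at 542 and 393 against 215 and 296 FPKM (-0.87), with no overlap of zones and called lower with equal totals and in the fit of 8 libraries, and RPL10 (XLOC_026794) was at 595 and 475 against 376 and 613 FPKM. With equal totals 10 of the 41 were lower, and without replicate 2 the count was 2. The elongation factor gene elfa2 was at 2059 and 1684 against 1611 and 2943 FPKM, and of 11 translation factor genes, in which elongation replicate 2 was the higher by a median of 0.59, 0 were called by limma, with 1 at an unadjusted p under 0.05 and 1 lower in the fit of 8 libraries.

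Genes of nitrate uptake and nitrogen assimilation rose at 7 of 14 tested loci of 19 and fell at 0, with a median of 0.91. The nitrate reductase locus NR (GRMZM2G568636) was at 2.22 and 1.99 against 10.6 and 18.5 FPKM (2.28 ± 0.31, limma adjusted p = 0.00794), and NIR, the nitrite reductase that follows it, at 12.6 and 9.85 against 25.6 and 32.8 FPKM (1.31). A second NR locus, GRMZM5G878558, was the more abundant in dividing tissue, at 13 and 10.1 against 3.70 and 7.996 FPKM (-0.94, uncalled, but called lower without elongation replicate 2 and with equal totals). GLN2, a glutamine synthetase gene, was at 34.5 in both division and 106 FPKM in both elongation libraries (1.59, on a shared span). The asparagine synthetase gene asn1 was at 58.5 and 53.1 against 56.1 and 52.5 FPKM (-0.04), with overlapping libraries. Of 20 tested amino acid genes 3 fell and 1 rose, against 12.4% and 16.5% of all tested loci. The falls were in cgs1, AK1 (GRMZM2G024686) and HMT-1 of the aspartate pathway to methionine. Other tested loci of that pathway were uncalled and went both ways, from -0.72 in AKHSDH2 to 0.37 in HMT-2. AKHSDH2 was called lower with equal totals and in the fit of 8 libraries. cgs1, for cystathionine synthesis, was at 41.9 and 45.9 against 19.5 and 14.7 FPKM (-1.32).

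Among hormone genes, of 7 tested gibberellin and DELLA loci of 9, CYP714B3 was the only one called, at 1.75 and 1.30 against 3.46 and 4.90 FPKM (1.03, limma adjusted p = 0.0371), and it lost the call with equal totals and without elongation replicate 2. The DELLA genes D8 and d9, repressors of gibberellin-driven growth, were at 76.1 and 66.6 against 71.0 and 143 FPKM and at 20.6 and 19.6 against 24.5 and 30.5 FPKM. Dwarf1, a gibberellin 3-oxidase gene, was at 3.53 and 2.59 against 0.354 and 1.44 FPKM (-1.15, adjusted p = 0.0641). The synthesis genes were low in both zones, at under 7 FPKM except for CPS1 in elongation replicate 1. Cytokinin genes rose at 0 and fell at 2 of 24 tested loci, against 3 and 5 in the fit of 8 libraries. By limma 0 of 3 brassinosteroid and 0 of 4 ethylene loci were called, with 0 and 1 at an unadjusted p under 0.05 and with 0 and 1, the latter higher, in the fit of 8 libraries.

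Auxin response genes were called in both directions, 4 higher and 10 lower of 32 tested. Without elongation replicate 1 more were higher, as over all tested loci. ARF30 and ARF13, auxin response factors, were at 30.1 and 31.4 against 5.67 and 4.66 FPKM (-2.37 ± 0.20, limma adjusted p = 0.00312) and at 48.4 and 51.1 against 14.6 and 13.8 FPKM (-1.74), while AUX32, named for the Aux/IAA repressors, was at 17 and 16.3 against 75.9 and 48.4 FPKM (1.80). Auxin transport changed carrier by carrier. PIN1a was at 11.8 and 12.7 against 5.15 and 7.22 FPKM (-0.90, not called when the filter on low values was dropped), PIN10a at 2.79 and 2.53 against 14.5 and 22.5 FPKM (2.38), and br2, an efflux transporter whose loss dwarfs maize, at 43.4 and 44.1 against 93.4 and 153 FPKM (1.43). PIN1a was the higher of these PIN genes in dividing and PIN10a in elongating tissue.

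Of 18 tested jasmonate and lipoxygenase genes 6 rose and 3 fell, with more rises without elongation replicate 1, as over all tested loci. The lipoxygenase lox1 was at 42.2 and 68.3 against 367 and 324 FPKM (2.66) and lox12 at 2.07 and 2.64 against 25.9 and 21.1 FPKM (2.87), whereas lox11 was at 28.2 and 22.4 against 3.64 and 4.88 FPKM (-2.32 ± 0.23, limma adjusted p = 0.00434). aos1, for the next step of jasmonate synthesis, was at 56.8 and 66.7 against 207 and 343 FPKM (2.09). Among abscisic acid genes 5 of 19 rose and 2 fell, and more rose without elongation replicate 1, as over all tested loci. The gene asr1, induced by that hormone and ripening, was at 5.53 and 8.36 against 105 and 104 FPKM (3.75 ± 0.24, limma adjusted p = 0.0026). D14a, a strigolactone receptor gene, was at 17.9 and 13.3 against 37.0 and 43.1 FPKM (1.31).

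Cuticle and wax genes rose at 6 and fell at 1 of 10 tested loci, with a median of 1.61. glossy2, of maize leaf wax, was at 167 and 124 against 773 and 1301 FPKM (2.79), and the lipid transfer gene plt2 at 65.9 and 78.6 against 465 and 850 FPKM (3.11). The fall was that of CER1 (GRMZM2G099097), and a second CER1 locus, GRMZM2G066578, rose from 0.146 and 0.506 to 2.49 and 2.05 FPKM (1.31). LTP3 was among the most abundant named genes of both zones, at 2605 and 2116 against 1431 and 3826 FPKM, with elongation replicates on either side of the division zone. The elongation replicates of this group differed by a median of 0.84. Benzoxazinoid defence genes rose at 4 of 10, and at more without elongation replicate 1, as over all tested loci. BX1, the first enzyme of the pathway, was at 11.9 and 15.2 against 44.1 and 48.9 FPKM (1.71). Flavonoid genes rose at 4 and fell at 1 of 6, with bz1 at 3.22 and 4.53 against 63.1 and 132 FPKM (4.26).

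Antioxidant and glutathione transferase genes rose at 10 and fell at 1 of 37 tested loci. gst9 was at 4.41 and 5.34 against 51.7 and 38.9 FPKM (2.97), and gst41 at 68.8 and 52.6 against 5.02 and 14.4 FPKM (-2.67). Without elongation replicate 1 the count of rises was 21, against 23.7% of all tested loci. Heat shock and chaperone genes rose at 4 and fell at 4 of 27, shares near the 16.5% and 12.4% of all tested loci. More of them rose without elongation replicate 1, and more fell without replicate 2, as over all tested loci. The falls included the mitochondrial-type chaperonin HSP60-1 at 162 and 147 against 59.8 and 68.3 FPKM (-1.26). The rises included hsp18c, a small heat shock gene, at 6.41 and 4.73 against 23 and 53.9 FPKM (2.48). Of 20 tested senescence and autophagy genes 4 rose, by 1.19 at most, and 0 fell, against 16.5% and 12.4% of all tested loci. With equal totals 2 of them rose, against 13.1% of all tested loci. Of 13 light receptor and clock genes 4 rose and 0 fell, but some fell without elongation replicate 1, where more of all tested loci did. A locus of the phytochrome PHYC, GRMZM2G129889, rose, at 1.86 and 2.83 against 7.997 and 7.91 FPKM (1.44), and the adjacent GRMZM2G129913 of the same name was at 2.67 and 2.65 against 1.69 and 0.273 FPKM (-0.98, uncalled, zones not overlapping). The clock gene GI was at 41.1 and 58.2 against 58.3 and 23.3 FPKM and did not separate the zones. id1, a maize flowering regulator of immature leaves, was at 4.61 and 4.02 against 17 and 23.1 FPKM (1.97).

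**Figure D4:**
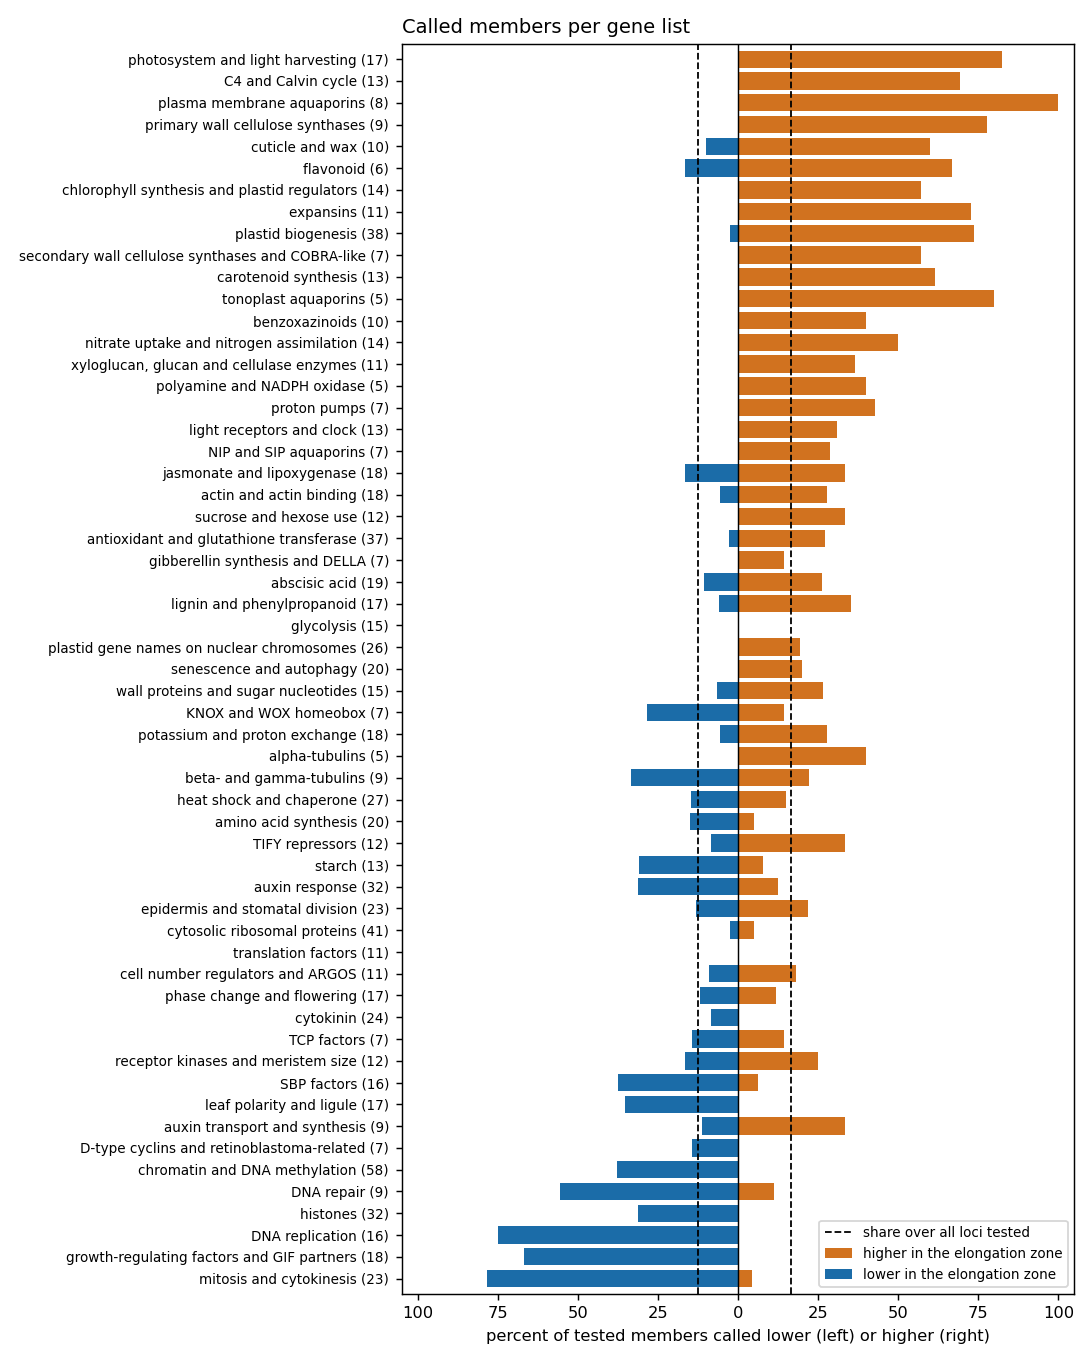
Percent of tested members called lower (blue, left) or higher (orange, right) in the elongation zone at HN for gene groups with at least 5 tested members other than transcription factor families, ordered by median difference, with the tested number in brackets. Dashed lines mark the 12.4% and 16.5% of all tested loci that were called lower and higher.

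The spread between the elongation libraries was not the same for all groups. Replicate 2 exceeded replicate 1 by medians of 0.97 for histones, 0.93 for plasma membrane aquaporins, 0.69 for cytosolic ribosomal proteins and 0.59 for photosystem genes, while the medians were -0.43 for carotenoid and -0.18 for plastid biogenesis genes and 0.07 for all tested loci. The division libraries differed most in histones, by -0.44. Among named genes of at least 20 FPKM the widest gap towards replicate 2 was in hsp22, at 24.3 and 141 FPKM in the 2 elongation libraries, and the widest towards replicate 1 in PP2C3, a phosphatase gene, at 24.4 and 4.34 FPKM. The clock genes GI and gigz1b were among the 5 that were highest in replicate 1 relative to replicate 2, the latter at 24.3 and 7.99 FPKM.

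**Figure D5:**
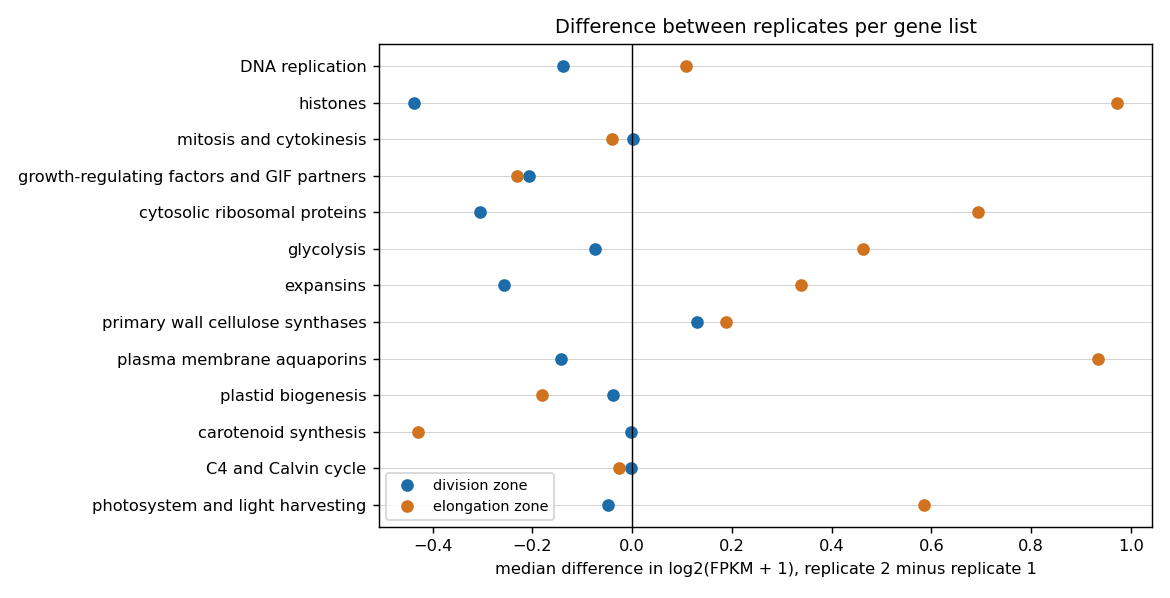
Median over tested members of replicate 2 minus replicate 1 in log2(FPKM + 1) for 13 gene groups, division libraries in blue and elongation libraries in orange. The elongation replicates differ most in histones (0.97), and the division replicates stay between -0.44 and 0.13 in these groups.

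The LN libraries, which took no part in choosing or testing these loci, allow the order of the zones to be looked at in other samples. Of the 3830 loci called higher at HN, 94.4% had both LN elongation libraries above both LN division libraries, and 0.653% had them below. Of the 2884 loci called lower, 95.2% had them below and 0.728% above. Over all tested loci the shares were 43.1% above and 37.2% below. All 15 of the largest rises and 14 of the 15 largest falls kept their order. The exception was TCP20, at 0.857 and 1.55 FPKM in dividing and 0.663 and 9.88 FPKM in elongating tissue of LN plants. In levels, GIF1 reached 65.6 and 84.7 FPKM in dividing tissue at LN, and pao1 at 81.9 and 91.0 FPKM and rbcS at 64.2 and 49.8 FPKM in the LN elongation libraries. PIP2-3, by contrast, was at 153 and 138 FPKM in the LN elongation libraries, within its HN range. These orders are a description, and the difference between supplies was not tested here.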

How the data were processed

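RNA from the division and elongation zones was sequenced in 2 libraries per zone and nitrogen supply. The table deposited by the authors gives 1 value per locus and library, and its unit was taken as FPKM from the values, which are not whole numbers and have unequal totals. Per the submitters' processing notes the tools included TopHat2 and edgeR and the build was B73 RefGen_v3; for versions, roles and normalization nothing is given in the sources used here. The table has 44070 lines and 43110 loci, of which 4993 share a span with another locus and 865 carry several gene identifiers. Names came from RefSeq genes of assembly Zm-B73-REFERENCE-NAM-5.0, joined by identifier only: 18777 loci matched, 2751 of them with an informative name and 2016 of those tested.

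From the deposited FPKM, log2(FPKM + 1) was tested with limma 3.58.1 (variance trend, R 4.3.3) on the 4 HN libraries with 2 residual degrees of freedom, over loci averaging 1 FPKM or more in either zone, with Benjamini-Hochberg adjustment and a threshold of 0.05. Fold changes on this scale understate those of low genes. The script was checked on simulated data. The design foresaw a count of promoter motifs, which was not run because no sequence was used here. Python 3.11.15, numpy 2.4.6, pandas 2.3.3 and matplotlib 3.10.9 were used for summaries and plots. The labels call the replicates biological without naming the plants. Each p-value therefore sets a zone difference against the spread between these samples only, which limma moderates with the spread at other loci. Read depth is unknown, so no counting interval is given.

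The replicate numbers were not used to pair the samples, because the labels tie no number to a shared plant or batch. The replicate differences of the zones correlated at -0.149 over 23242 loci, which cannot settle whether the samples were paired. The replicate block is therefore an alternative. Others were the pseudocount, the filter, the scaling, the libraries and weights in the fit, the variance trend, a minimum log2 change of 1 and loci that share no span. Leaving out each library of the 8-library fit, and a crossed block, were chosen after seeing the data.

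The members and gene lists were chosen with earlier results of these data known. Named genes are the 15 largest rises and 15 largest falls among called named loci of at least 5 FPKM whose zones do not overlap, up to 4 called and 2 uncalled members per list, the 10 highest named loci per zone, and the 5 named loci of at least 20 FPKM that differ most between elongation libraries in each direction. PIP2-1, CesA-6, CYP714B3, Dwarf1, CPS1, SH-1, GIF2, GRF8, GRF13, AKHSDH2 and HMT-2 were chosen after their values were seen. So were second loci of a gene name, loci named only in plots and the loci with no gene name. Some of the genes that the rule selects are not described here.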

Additional observations from a re-analysis of the deposited data

How the results depend on the processing

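Every setting kept the direction of all 6714 called loci for which it was counted, the fit with no filter not being counted. Some settings leave the difference itself unchanged, so a reversal was not possible in them. These were the full 8-library fit, the replicate block and crossed block, and no variance trend. The minimum log2 change, the filter of 5 FPKM and loci that share no span were others. What changed was how many loci were called. A fit of all 8 libraries in 4 groups, whose pooled spread may understate the error here, called 10288 loci, 5436 higher and 4852 lower. Of the 6714, 6676 were among them in the same direction. Leaving out each HN library from that fit gave 6364 to 12656 called loci, 3534 to 6586 higher and 2582 to 6070 lower; without elongation replicate 2 it called 10410, with 5032 lower. Leaving out each library from the 4-library fit gave 0 to 10359 called, 0 to 5508 higher and 0 to 4851 lower; both counts of 0 were without a division library, where limma has 1 residual degree of freedom and 5433 or 5460 loci had an unadjusted p under 0.05. A test against a minimum log2 change of 1 called 1099 loci, 710 higher and 389 lower. With the replicate block 6556 loci were called, 3778 higher and 2778 lower, of which 5640 were among the 6714 in the same direction. The crossed replicate block called 9852, 5262 higher and 4590 lower; the numbers mark no known pairing. Equal totals, median-of-ratios scaling, a pseudocount of 0.1, a filter of 5 FPKM or none, no variance trend, library weights and loci that share no span left the number called between 5537 and 6900.

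Of 361 named loci 219 were called. With equal totals 205 of these remained called, without elongation replicate 1 214, without elongation replicate 2 212, with the replicate block 197 and with a minimum log2 change of 1 89. In the 8-library fit without either division library 208 remained; ARGOS5 was lost without either, TCP20 and HMT-1 without replicate 1, and NIR, PAL1 and PIN1a without replicate 2. NF-YA7, uncalled at -0.03, was called at 0.52 in the 8-library fit without elongation replicate 2; the cause was not tested. With 2 libraries per zone and read depth unknown, a difference that missed the threshold is not shown to be absent.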

Other observations

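Transcription factor families were called in both directions, against 16.5% higher and 12.4% lower over all tested loci. MYB and MYB-related factors were higher at 8 and lower at 3 of 33 tested loci. Besides MYB61, Myb20 was at 1.10 and 0.622 FPKM in the division libraries and 22.9 and 32 FPKM in the elongation libraries (3.93), and MYB30 at 2.16 and 1.95 against 30.3 and 26.7 FPKM (3.27). All of these were low in dividing tissue. NAC factors were higher at 4 and lower at 0 of 15, with NAC75 at 0.380 and 0.367 against 6.31 and 6.12 FPKM (2.39), and the fit of 8 libraries called 1 lower. WRKY factors were higher at 0 and lower at 3 of 11, with WRKY1 (GRMZM2G018487) at 6.28 and 5.74 against 0.767 and 1.40 FPKM (-1.77), and the fit of 8 libraries called 1 higher.

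Families of basic helix-loop-helix, AP2/ERF and homeodomain factors had as many rises as falls, with 7 and 7 of 33, 5 and 5 of 23 and 4 and 4 of 19. In bHLH30 the levels were 12.9 and 10.7 FPKM in dividing and 59.4 and 90.5 FPKM in elongating tissue (2.54), and in bHLH84 23.5 and 17.1 against 2.41 and 2.82 FPKM (-2.55). EREB171 was at 30.1 and 29.7 against 4.47 and 2.17 FPKM (-2.89), and the homeodomain gene HB2 at 9.38 and 8.64 against 0.422 and 0.344 FPKM (-2.86). None of these overlapped between zones. Of 24 bZIP factors 2 rose and 1 fell, bZIP89 from 8.02 and 7.29 to 28.0 and 44.1 FPKM (2.07), and of 7 GRAS factors 3 fell and 0 rose by limma, 4 having an unadjusted p under 0.05 and 1 being higher in the fit of 8 libraries. By limma 0 of 5 NF-YA, 6 LOB and 5 Dof factors were called, with 0, 2 and 1 at an unadjusted p under 0.05 and 0, 1 and 1 called in the fit of 8 libraries. The NF-YA loci were lower in elongation replicate 2 than in replicate 1 by a median of -1.0.

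Some of the widest differences were at loci with no gene name. GRMZM2G009465 was at 13.8 and 21.4 FPKM in dividing and 1516 and 1689 FPKM in elongating tissue (6.46, on a shared span), and GRMZM2G112210 at 54.5 and 59.7 against 0 and 0.0950 FPKM (-5.79). GRMZM2G083526 was at 83.6 and 74.8 against 0.189 and 1.18 FPKM (-5.64). Of loci called, 79 were listed at 0 in both division libraries and 61 at 0 in both elongation libraries. Loci without a gene identifier were called higher at 11.1% and lower at 10.9% of 2180 tested, and loci with a gene name at 21.5% and 13.3% of 2016.

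Among the most abundant named genes, gar2 was at 351.97 and 304 FPKM in dividing and 2997 and 6063 FPKM in elongating tissue (3.70), and pcr1 at 290 and 266 against 1566 and 2057 FPKM (2.69). DEF1 was at 2151 and 1490 against 335 and 635 FPKM (-1.95, limma adjusted p = 0.0446). grp1, the highest named gene of the division zone, was at 4974 and 3949 against 4312 and 7249 FPKM and was not called. The 2 elongation libraries also parted in dbf1, at 34.5 and 8.90 FPKM, in PP2C20, at 25.2 and 6.86 FPKM, and in INO1, at 16.8 and 49.8 FPKM.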
